A study of Mus musculus with 25 samples.

Results

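The genes described here are 49 genes of the cell division cycle, found by symbol among the 24537 gene models of the deposited count table. Each matched 1 row, and all 49 were among the 16961 genes tested. They comprise 19 genes that act in S phase or in its preparation (Rrm1, Rrm2, Mcm2 to Mcm7, Pcna, Tyms, Tk1, Gmnn, Cdt1, Cdc6, Cdc45, Uhrf1, Tcf19, E2f1 and E2f8), 28 genes of G2 and mitosis (Aurka, Aurkb, Birc5, Bub1, Bub1b, Ccna2, Ccnb1, Ccnb2, Cdc20, Cdca3, Cdca8, Cdk1, Cenpe, Cenpf, Kif11, Kif20a, Kif2c, Mki67, Ndc80, Nuf2, Nusap1, Pbk, Plk1, Prc1, Spc25, Top2a, Tpx2 and Ube2c), and Stmn1 and Hmgb2, which are also expressed outside the cycle. RNA was sequenced from 25 libraries of 200 sorted cells each, from C57BL6 mice on a high fat diet (HFD, 45% fat) or a control diet (CD, 10% fat). In white adipose tissue (eWAT in the titles) the sorted macrophages were Tim4+ cells low in MHCII (pop1) or high in it (pop2), and Tim4- cells that were CD11c+ and MHCII+ (pop4) or CD11c- and high in MHCII (pop3), each with 2 HFD and 2 CD libraries. Blood monocytes, gated on CD115 and Ly6C, had 3 HFD libraries and 6 CD libraries, which pool 3 with CD titles (CD1 to CD3) and 3 with CD-CD titles (CD6 to CD8). The labels give no age, sex, diet duration or number of animals behind a library, so p-values measure the spread between libraries, which may be partly technical. The same title numbers recur across the adipose populations, and the labels do not say whether they mark the same animals. All adipose CD libraries carry CD-CD titles, so diet and title series cannot be told apart there. Adipose tissue was treated with collagenase and the transcription inhibitor flavopiridol, whereas no digestion of blood is described, so tissue and handling cannot be told apart either.

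A cell that divides copies its DNA in S phase and separates the copies in mitosis. Before S phase, E2F factors switch on the genes for the MCM helicase, for nucleotide synthesis and for replication licensing. Cyclins A and B with Cdk1, the spindle kinases and the kinetochore genes follow later, under the DREAM (MuvB) complex, B-Myb and FoxM1, which act through CHR elements in promoters. Macrophages of adipose tissue can renew themselves by local division, whereas circulating monocytes are largely non-dividing.

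Promoters of 7 of the genes are shown because they belong to the members with the most negative and the least negative log2 differences between Tim4+ and Tim4- macrophages, and because S phase and mitosis genes carried different motif words. The most negative with an entry were Ube2c, Tcf19, Spc25, Cdca3 and Rrm2, and the contrasting ones are Hmgb2 and Mcm3. Each sequence runs 5′ to 3′ on the gene's strand, from 250 bases before the start to 50 bases from it onward, from RefSeq on GRCm38.p6 (mm10). Capitals mark the CHR word TTTGAA or its variant TTCGAA, the E2F word TTGGCGC or its variants TTCCCGC, then TTGCCGC, then TTCGCGC, and the word CCAAT, searched on both strands. Adjacent or overlapping matches run together in 1 stretch of capitals. The Mcm3 entry starts 99 bases from the start in the count table.
Ube2c, chr2:164769679-164769978, strand +: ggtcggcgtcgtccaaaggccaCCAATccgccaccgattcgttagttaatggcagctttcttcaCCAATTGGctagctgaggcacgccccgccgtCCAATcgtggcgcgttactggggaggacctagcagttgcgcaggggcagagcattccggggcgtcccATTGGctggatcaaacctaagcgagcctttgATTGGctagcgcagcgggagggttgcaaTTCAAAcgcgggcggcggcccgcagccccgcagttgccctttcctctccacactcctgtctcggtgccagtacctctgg
Tcf19, chr17:35516775-35517074, strand -: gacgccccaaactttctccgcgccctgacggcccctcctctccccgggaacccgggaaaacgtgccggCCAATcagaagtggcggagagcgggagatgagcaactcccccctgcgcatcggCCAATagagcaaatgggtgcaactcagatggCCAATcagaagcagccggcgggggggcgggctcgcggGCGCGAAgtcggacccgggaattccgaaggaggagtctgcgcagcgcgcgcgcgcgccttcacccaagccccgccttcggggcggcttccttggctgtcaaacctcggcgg
Spc25, chr2:69206164-69206463, strand -: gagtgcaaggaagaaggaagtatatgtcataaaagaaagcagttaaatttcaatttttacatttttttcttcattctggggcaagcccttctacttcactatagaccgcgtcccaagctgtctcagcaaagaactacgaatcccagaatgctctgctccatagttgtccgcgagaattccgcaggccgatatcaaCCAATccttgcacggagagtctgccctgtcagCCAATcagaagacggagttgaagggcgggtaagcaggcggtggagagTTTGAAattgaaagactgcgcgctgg
Cdca3, chr6:124829926-124830225, strand +: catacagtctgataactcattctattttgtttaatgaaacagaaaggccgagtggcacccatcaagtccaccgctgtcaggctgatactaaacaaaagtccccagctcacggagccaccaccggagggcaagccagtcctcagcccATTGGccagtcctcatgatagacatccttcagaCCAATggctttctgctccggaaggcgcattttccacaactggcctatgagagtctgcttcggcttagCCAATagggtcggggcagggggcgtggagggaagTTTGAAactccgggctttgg
Rrm2, chr12:24708004-24708303, strand +: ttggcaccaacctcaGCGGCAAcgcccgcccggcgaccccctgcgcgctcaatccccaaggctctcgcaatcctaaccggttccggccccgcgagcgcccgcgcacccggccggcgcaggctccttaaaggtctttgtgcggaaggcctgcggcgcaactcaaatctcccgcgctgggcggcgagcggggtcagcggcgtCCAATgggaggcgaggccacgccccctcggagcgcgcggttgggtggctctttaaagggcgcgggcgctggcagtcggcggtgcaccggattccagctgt
Hmgb2, chr8:57511593-57511892, strand +: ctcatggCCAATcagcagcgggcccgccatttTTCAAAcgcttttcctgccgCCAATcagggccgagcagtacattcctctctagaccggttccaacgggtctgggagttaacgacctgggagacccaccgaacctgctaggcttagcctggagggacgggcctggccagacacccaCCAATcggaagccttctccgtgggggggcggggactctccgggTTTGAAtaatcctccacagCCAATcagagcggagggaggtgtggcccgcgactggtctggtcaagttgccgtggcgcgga
Mcm3, chr1:20820263-20820562, strand -: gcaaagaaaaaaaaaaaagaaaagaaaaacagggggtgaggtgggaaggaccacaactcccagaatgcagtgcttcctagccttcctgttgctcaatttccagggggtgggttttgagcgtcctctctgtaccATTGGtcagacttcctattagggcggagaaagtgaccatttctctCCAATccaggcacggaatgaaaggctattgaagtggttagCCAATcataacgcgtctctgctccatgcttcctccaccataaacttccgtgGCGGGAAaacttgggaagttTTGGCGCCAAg

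Of the 49 genes, 41 had a promoter entry. The entries of Kif2c, E2f8 and Cdc6 start 3852, 555 and 262 bases from the start in the count table, and those of Kif11 and Mcm7 21 bases. All are counted in the shares below. CHR words were present in 18 of 23 mitosis promoters (78.3%) and in 4 of 17 S phase promoters (23.5%), beside 19.2% of all 32851 promoters in the table. E2F words were present in 3 of 23 mitosis promoters (13%) and 11 of 17 S phase promoters (64.7%), beside 9.57% of all promoters. CCAAT was present in 78.3% of mitosis and 70.6% of S phase promoters, beside 37.4% of all. The first base of the CHR word lay 24 bases after the start in Spc25, 30 bases after it in Cdca3 and at position -29 in Ube2c, with the start base counted as 0. These matches describe letters in a window and do not show binding.

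**Figure D1:**
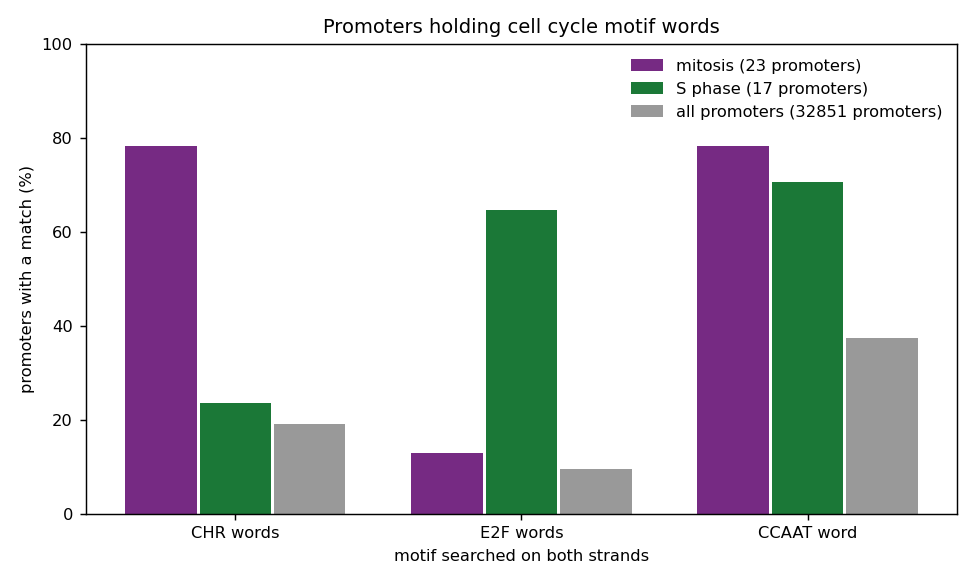
Share of promoters (vertical axis, %) that hold a CHR, E2F or CCAAT word on either strand, for 23 mitosis genes, 17 S phase genes and all 32851 promoters in the table. CHR words stand at 78.3% in mitosis genes and E2F words at 64.7% in S phase genes, while all promoters stand at 19.2% and 9.57%.

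Libraries held 3752835 to 6629280 counts in Tim4+ macrophages, 5071290 to 8524867 in Tim4- macrophages and 6502394 to 9336395 in monocytes. Levels are in CPM, the count relative to the library total after TMM scaling, and 3 counts, used as the floor of detection, correspond to 0.341 to 0.699 CPM. Floors cover counting error only. Timd4, which encodes Tim4, averaged 438 ± 156 CPM in pop1 and 312 ± 252 in pop2, against 2.72 ± 5.26 in pop4 and 3.28 ± 5.74 in pop3 (SD, n = 4 each). Itgax (CD11c) was at 180 to 191 CPM in pop4 and 1.13 to 43.6 CPM in pop3. Receptor genes of smell (symbols starting Olfr, Vmn1r and Vmn2r), summed to gauge background reads, stood at 243 to 683 CPM in Tim4+ libraries, 78.8 to 189 in pop4, 192 to 656 in pop3 and 92.8 to 254 in monocytes. In bulk samples, fewer dividing cells and less of these RNAs per cell cannot be told apart.

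Cell cycle transcripts were highest in Tim4- macrophages, above all in pop4, and low in Tim4+ macrophages and monocytes. The 28 mitosis genes summed to 120 to 369 CPM in the 8 Tim4+ libraries (median 233), against 678 to 2690 CPM in the 8 Tim4- libraries (median 1830). These ranges did not touch. In monocytes the mitosis sum was 136 to 314 CPM (median 211), inside the range of the Tim4+ libraries. The 19 S phase genes summed to 287 to 595 CPM in Tim4+ libraries (median 418), against 494 to 1620 CPM in Tim4- libraries (median 1120). Here the ranges overlapped through pop3 CD7, at 494 CPM. Monocytes had an S phase sum of 225 to 364 CPM (median 314).

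**Figure D2:**
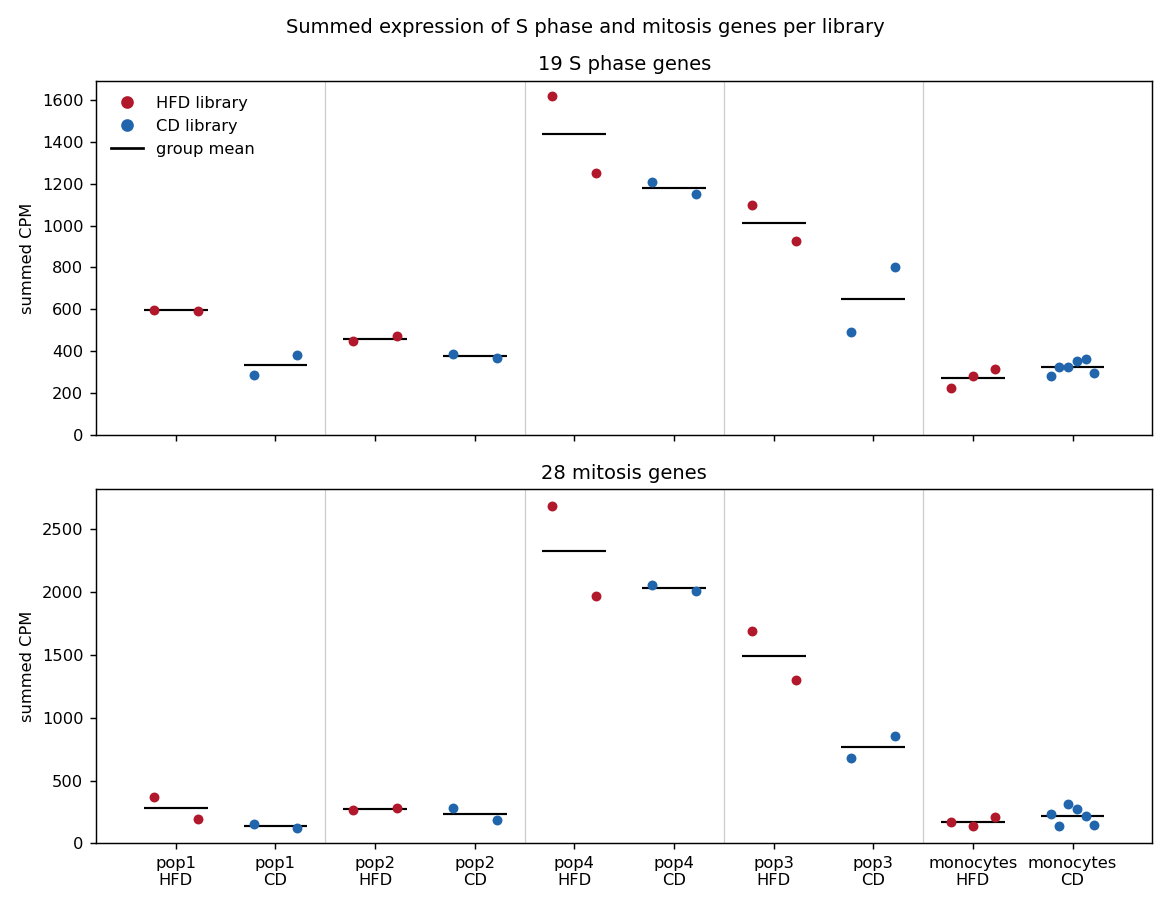
Summed CPM (vertical axis) of 19 S phase genes and 28 mitosis genes in each library (points) by population and diet, with the group mean as a line. Pop4 libraries reach 1970 to 2690 CPM for mitosis genes, and no Tim4+ or monocyte library exceeds 369 CPM.

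The balance between the phases differed as well. The mitosis sum divided by the S phase sum was 0.312 to 0.718 in Tim4+ libraries and 1.06 to 1.75 in Tim4- libraries, and 0.423 to 0.961 in monocytes. Every Tim4- library lay above every other library. The number of mitosis genes over 10 CPM was 2 to 9 of 28 in Tim4+ libraries, 26 to 28 in pop4, 14 to 22 in pop3 and 4 to 10 in monocytes. For S phase genes it was 6 to 11 of 19 in Tim4+ libraries, 17 to 19 in pop4, 11 to 17 in pop3 and 6 to 11 in monocytes. Ccna2, which encodes cyclin A2, made up 35.8% of the mitosis sum in pop1 and 29.9% in pop2, against 10.4% in pop4 and 10.8% in pop3. In monocytes the largest share was that of Aurkb, at 16.6%.

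Per length, the order of the genes also differed between populations. In pop4 the highest mean levels were those of Ube2c (169 RPKM, or CPM per kilobase of gene model, SD 24.7), Gmnn (156, SD 17.6), Ccnb2 (93.9, SD 21.3), Spc25 (87.2, SD 5.63), Ccna2 (81.1, SD 21.7) and Pcna (63.9, SD 8.43; n = 4 libraries each). Ube2c and Gmnn differed by less than either SD, and Ccnb2, Spc25 and Ccna2 lay within the SD of Ccna2 from each other. In pop3 the highest were Gmnn at 116 RPKM (SD 40.9) and Ube2c at 60.2 (SD 55.1). In pop1 they were Gmnn at 32.2 RPKM (SD 34) and Ccna2 at 26.9 (SD 14.1), and in pop2 Gmnn at 40.9 (SD 33.2) and Pcna at 32.5 (SD 9.89). Monocytes led with Gmnn at 56.5 RPKM (SD 22.1, n = 9) and Pcna at 43.3 (SD 8.29).

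**Figure D3:**
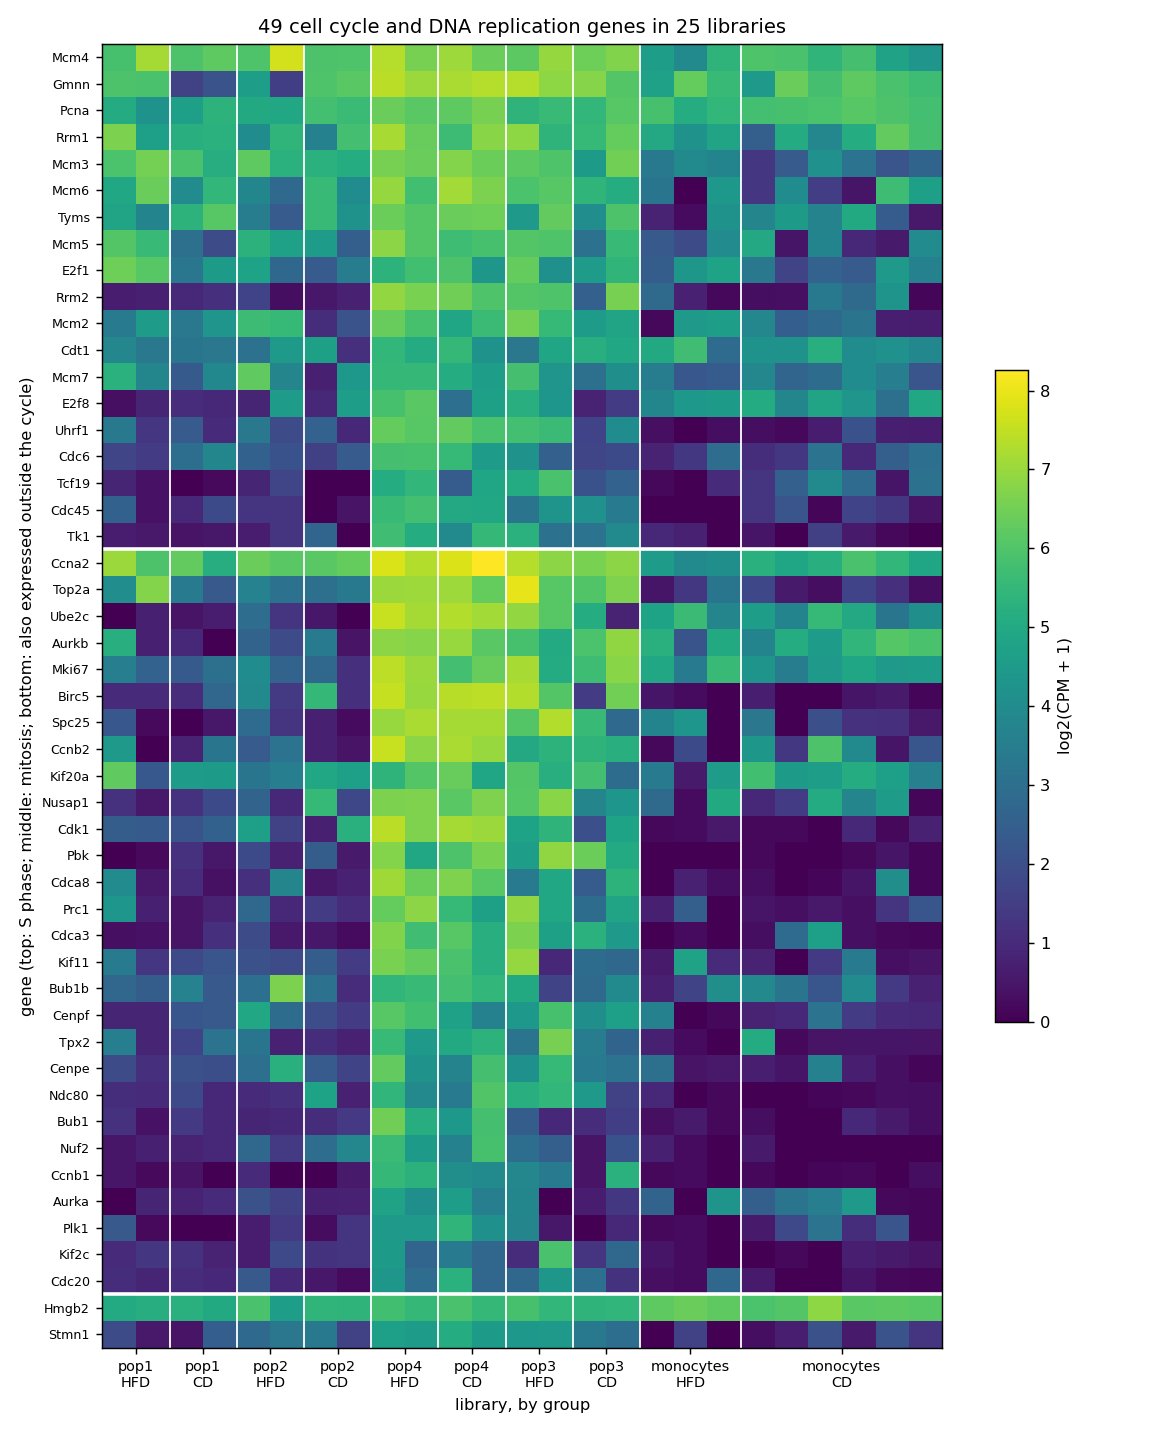
Level of the 49 genes (rows, log2 of CPM + 1) in the 25 libraries (columns by group), with S phase genes at the top, mitosis genes below them and Hmgb2 and Stmn1 at the bottom. Most mitosis rows are bright in pop4 and dark in Tim4+ libraries and monocytes, while Mcm4, Pcna and Hmgb2 are visible in every group.

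The first comparison asked how Tim4+ macrophages differ from Tim4- macrophages of the same tissue. No gene of the 49 was higher in Tim4+ cells and 31 were lower (edgeR's quasi-likelihood test, Benjamini-Hochberg adjusted p under 0.05), that is 63.3%, beside 7.26% of all genes tested higher and 7.79% lower. Among S phase genes 9 of 19 fell, and among mitosis genes 22 of 28. All 49 log2 differences were negative, with a median of -2.99 (-1.51 in S phase and -3.55 in mitosis genes), while the median over all genes was 0.14. At an unadjusted p under 0.05 there were 39 genes, and DESeq2 called 0 higher and 31 lower. Of the 31 edgeR calls DESeq2 kept 27 and gave the others no adjusted p, so the 2 sets of 31 differ in part. Shares of all genes past the threshold, here and below, are those of edgeR. None is given for DESeq2, so its counts of the 49 genes have no matching share. Plk1 in pop1 CD and Tcf19 in pop2 CD had 0 counts in every library of the group, where fitted values depend on the prior. With those groups set to 3 counts the mitosis median was -3.42 and the others kept their values.

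**Figure D4:**
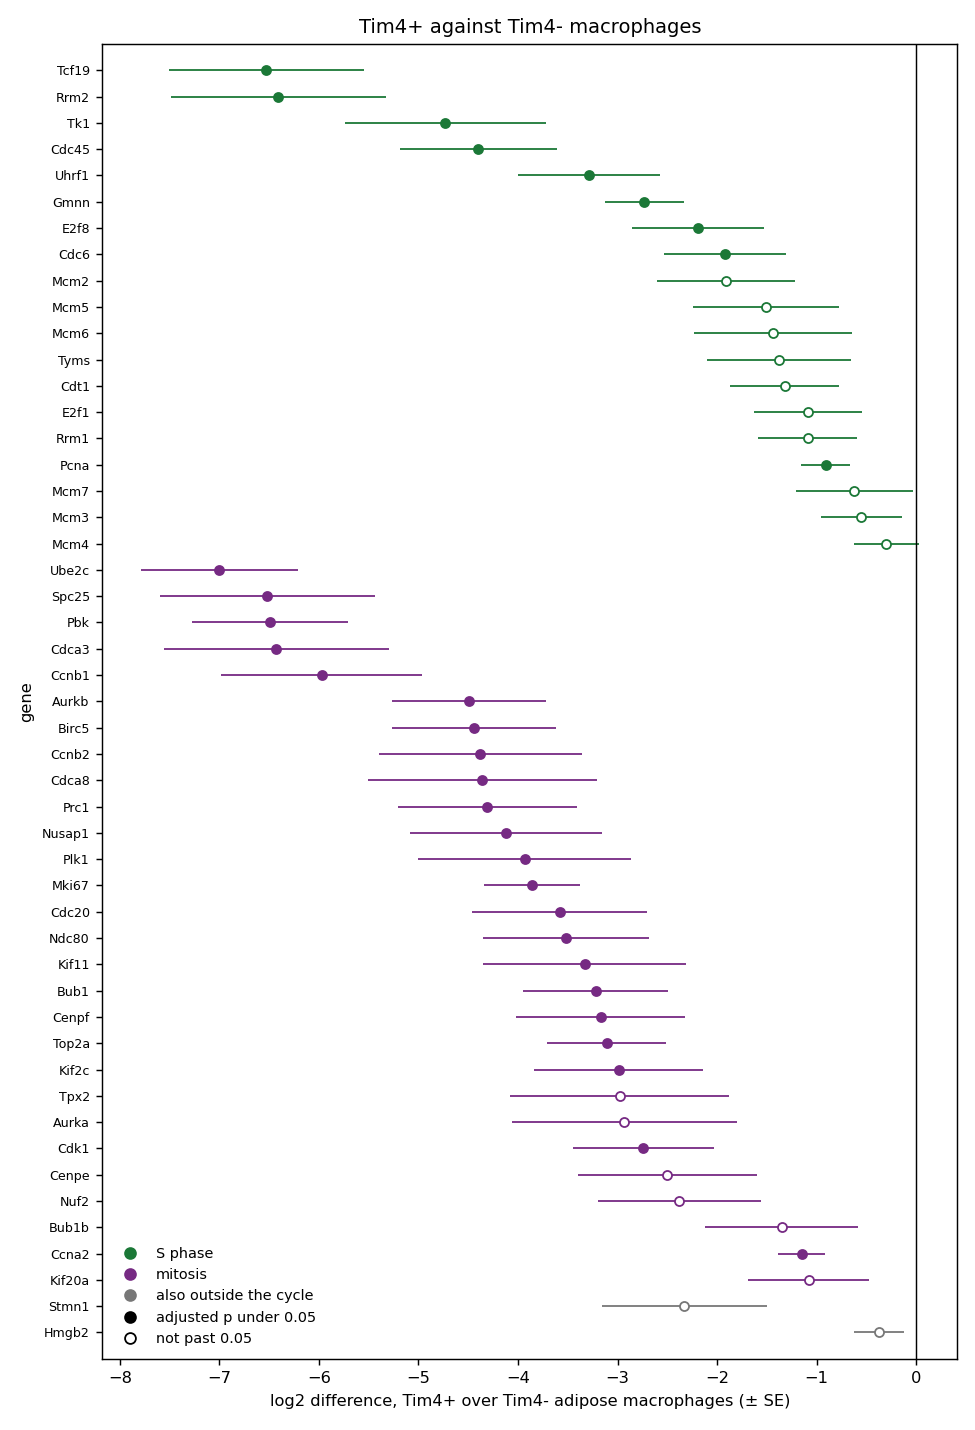
Log2 difference of Tim4+ over Tim4- macrophages (horizontal axis, with SE) for the 49 genes, filled where the adjusted p was under 0.05. All 49 points lie below 0, from -7 for Ube2c to -0.3 for Mcm4.

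The mitosis genes with the largest differences were Ube2c, Spc25 and Pbk. Ube2c (chromosome 2, 164769929 to 164772902, mm10) encodes the E2 enzyme of the anaphase-promoting complex. It was at 0 and 0.649 CPM in pop1 HFD and 0.364 and 0.584 in pop1 CD libraries, and 6.74 and 1.4 in pop2 HFD and 0.441 and 0 in pop2 CD libraries. It was at 187 and 140 CPM in pop4 HFD and 159 and 138 in pop4 CD libraries, and 120 and 68 in pop3 HFD and 33.6 and 0.755 in pop3 CD libraries, so that pop3 CD8 alone fell within the Tim4+ range (log2 difference -7, SE 0.785, adjusted p = 3.45e-06). Spc25, a subunit of the NDC80 kinetochore complex, averaged 1.61 ± 2.26 CPM in Tim4+ and 104 ± 56.4 CPM in Tim4- libraries (SD, n = 8 each; log2 difference -6.52, SE 1.08, adjusted p = 0.000318). Pbk, a mitotic kinase, averaged 1.26 ± 1.51 CPM in Tim4+ and 68.8 ± 37.6 CPM in Tim4- libraries, with ranges that did not overlap (log2 difference -6.49, SE 0.784, adjusted p = 1.46e-05).

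Mki67 (chromosome 7, 135689788 to 135716379) encodes the Ki-67 protein that coats mitotic chromosomes. It was at 10.6 and 5.03 CPM in pop1 HFD and 4.01 and 7.3 in pop1 CD libraries, and 15.3 and 5.13 in pop2 HFD and 5.95 and 1.22 in pop2 CD libraries. It was at 172 and 129 CPM in pop4 HFD and 54.3 and 79.9 in pop4 CD libraries, and 145 and 33 in pop3 HFD and 50.8 and 110 in pop3 CD libraries. The highest Tim4+ library, at 15.3 CPM, lay below the lowest Tim4- library, at 33 CPM (log2 difference -3.86, SE 0.48, adjusted p = 1.22e-05). Top2a, the topoisomerase that untangles sister DNA, was at 15.7 and 104 CPM in pop1 HFD and 9.29 and 3.94 in pop1 CD libraries, and 11.7 and 7.69 in pop2 HFD and 7.28 and 9.07 in pop2 CD libraries. It was at 130 and 133 CPM in pop4 HFD and 131 and 78.5 in pop4 CD libraries, and 249 and 67.8 in pop3 HFD and 63.4 and 99.4 in pop3 CD libraries (log2 difference -3.11, SE 0.6, adjusted p = 0.00126). Here pop1 HFD3, at 104 CPM, stood inside the Tim4- range, and the other Tim4+ libraries were at or below 15.7 CPM.

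Cyclin B2 and its kinase followed. Ccnb2, which encodes the cyclin, was at 20.8 and 0 CPM in pop1 HFD and 0.729 and 8.18 in pop1 CD libraries, and 4.16 and 7.93 in pop2 HFD and 0.661 and 0.349 in pop2 CD libraries. It was at 187 and 113 CPM in pop4 HFD and 149 and 125 in pop4 CD libraries, and 30.8 and 39.1 in pop3 HFD and 40.2 and 35.3 in pop3 CD libraries, above every Tim4+ library (log2 difference -4.38, SE 1.02, adjusted p = 0.00643). Cdk1 was at 4.4 and 4.06 CPM in pop1 HFD and 3.46 and 4.97 in pop1 CD libraries, and 24.4 and 2.1 in pop2 HFD and 0.661 and 36.8 in pop2 CD libraries. It was at 169 and 100 CPM in pop4 HFD and 140 and 129 in pop4 CD libraries, and 26.7 and 40.1 in pop3 HFD and 3.02 and 26.6 in pop3 CD libraries, with pop3 CD7 inside the range of the Tim4+ libraries (log2 difference -2.74, SE 0.709, adjusted p = 0.0126). Birc5, which encodes survivin of the chromosomal passenger complex, was at 0.963 and 0.974 CPM in pop1 HFD and 1.09 and 5.55 in pop1 CD libraries, and 14.1 and 1.63 in pop2 HFD and 44.1 and 1.22 in pop2 CD libraries. It was at 183 and 125 CPM in pop4 HFD and 164 and 173 in pop4 CD libraries, and 157 and 64.8 in pop3 HFD and 1.78 and 89.2 in pop3 CD libraries (log2 difference -4.44, SE 0.821, adjusted p = 0.000866). Pop2 CD7, at 44.1 CPM, was the high Tim4+ library and pop3 CD7, at 1.78 CPM, the low Tim4- one.

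The mitosis genes that did not pass the test were Tpx2, Aurka, Bub1b, Cenpe, Kif20a and Nuf2, with log2 differences from -2.98 (Tpx2, adjusted p = 0.0705) to -1.08 (Kif20a, adjusted p = 0.224). Ccna2 fell by 1.15 on the log2 scale (SE 0.239, adjusted p = 0.00259), to 75.5 ± 26.2 CPM in Tim4+ libraries against 174 ± 71.6 CPM in Tim4- libraries (SD, n = 8 each). It had the smallest difference among the mitosis genes that passed.

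The S phase genes differed widely in the size of their difference. Rrm2 (chromosome 12, 24708254 to 24714146), the regulated subunit of ribonucleotide reductase, was at 0.55 and 0.649 CPM in pop1 HFD and 0.911 and 1.17 in pop1 CD libraries, and 2.18 and 0.233 in pop2 HFD and 0.441 and 0.697 in pop2 CD libraries. It was at 119 and 96.2 CPM in pop4 HFD and 88.2 and 61.8 in pop4 CD libraries, and 65.2 and 62.3 in pop3 HFD and 4.8 and 93.4 in pop3 CD libraries, with no overlap (log2 difference -6.41, SE 1.08, adjusted p = 0.000369). Its partner Rrm1 was at 40 ± 27.7 CPM in Tim4+ and 83.1 ± 37.7 CPM in Tim4- libraries and did not pass (log2 difference -1.09, SE 0.495, adjusted p = 0.136). Tk1, thymidine kinase, was at 0.55 and 0.487 CPM in pop1 HFD and 0.364 and 0.438 in pop1 CD libraries, and 0.594 and 1.4 in pop2 HFD and 5.51 and 0 in pop2 CD libraries. It was at 51.9 and 33.6 CPM in pop4 HFD and 14.5 and 44.2 in pop4 CD libraries, and 37.8 and 7.39 in pop3 HFD and 7.82 and 14.3 in pop3 CD libraries, again with no overlap (log2 difference -4.73, SE 1.01, adjusted p = 0.00318). Tcf19, a gene named as a transcription factor and induced in late G1, had the largest S phase difference (0.552 ± 0.795 CPM in Tim4+ and 26.1 ± 20.2 CPM in Tim4- libraries; log2 difference -6.53, SE 0.981, adjusted p = 0.000131). In all, 8 of the 49 genes had lower ranges that did not overlap (Rrm2, Tk1, Cdc45, Tcf19, Mki67, Ccnb2, Pbk and Cdca3), that is 16.3%, beside 0.336% of all genes, and 0 had higher ones (0.342% of all genes).

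None of the 6 MCM helicase genes passed, and their log2 differences ran from -1.91 (Mcm2, adjusted p = 0.0658) to -0.3 (Mcm4, adjusted p = 0.554). Mcm5 was at 64.9 and 48 CPM in pop1 HFD and 7.29 and 2.77 in pop1 CD libraries, and 38.6 and 25.6 in pop2 HFD and 22.9 and 4.71 in pop2 CD libraries. It was at 112 and 66 CPM in pop4 HFD and 50.4 and 56.6 in pop4 CD libraries, and 65.6 and 63 in pop3 HFD and 7.46 and 47.4 in pop3 CD libraries, so the groups overlapped widely (log2 difference -1.51, SE 0.735, adjusted p = 0.16). Tyms, thymidylate synthase, was at 27.1 and 12.2 CPM in pop1 HFD and 39.3 and 67.8 in pop1 CD libraries, and 10.3 and 4.2 in pop2 HFD and 47.2 and 18.1 in pop2 CD libraries. It was at 83.5 and 65 CPM in pop4 HFD and 82.1 and 85.3 in pop4 CD libraries, and 20.7 and 76.4 in pop3 HFD and 15.6 and 61.5 in pop3 CD libraries and did not pass (log2 difference -1.38, SE 0.723, adjusted p = 0.19). Pcna, the sliding clamp of DNA polymerase, passed with a small difference. It was at 33 and 17.9 CPM in pop1 HFD and 24.4 and 39.7 in pop1 CD libraries, and 31.3 and 29.1 in pop2 HFD and 54.2 and 48.1 in pop2 CD libraries. It was at 81.6 and 70.4 CPM in pop4 HFD and 73.7 and 94.2 in pop4 CD libraries, and 40.8 and 46.7 in pop3 HFD and 43.5 and 68.3 in pop3 CD libraries (log2 difference -0.91, SE 0.25, adjusted p = 0.0179), and its ranges overlapped.

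A pair of regulators varied within the Tim4+ cells. E2f8, an atypical E2F that represses E2F targets, was at 0.275 and 0.811 CPM in pop1 HFD and 1.09 and 0.876 in pop1 CD libraries, and 0.793 and 22.6 in pop2 HFD and 0.882 and 23.4 in pop2 CD libraries. It was at 56.7 and 70.7 CPM in pop4 HFD and 7.04 and 24.9 in pop4 CD libraries, and 36 and 19.2 in pop3 HFD and 0.711 and 1.7 in pop3 CD libraries (log2 difference -2.19, SE 0.664, adjusted p = 0.0304). Both pop2 HFD3 and pop2 CD8 were above 20 CPM, while the other Tim4+ libraries were at or near 1 CPM. Gmnn (chromosome 13, 24751845 to 24761937) encodes geminin, which blocks relicensing of replicated DNA through Cdt1. It was at 60.5 and 58.9 CPM in pop1 HFD and 2 and 3.36 in pop1 CD libraries, and 24 and 1.87 in pop2 HFD and 63.1 and 69.4 in pop2 CD libraries. It was at 168 and 129 CPM in pop4 HFD and 148 and 160 in pop4 CD libraries, and 162 and 115 in pop3 HFD and 107 and 65.3 in pop3 CD libraries (log2 difference -2.73, SE 0.395, adjusted p = 6.96e-05). The lowest adipose libraries were pop2 HFD3 and both pop1 CD libraries.

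Of the genes also expressed outside the cycle, Stmn1, which encodes the tubulin-binding stathmin, was at 2.75 and 0.487 CPM in pop1 HFD and 0.364 and 4.53 in pop1 CD libraries, and 6.14 and 8.63 in pop2 HFD and 9.04 and 2.09 in pop2 CD libraries. It was at 24.6 and 22.6 CPM in pop4 HFD and 33.7 and 21.8 in pop4 CD libraries, and 20.3 and 20.8 in pop3 HFD and 9.06 and 6.98 in pop3 CD libraries (log2 difference -2.33, SE 0.83, adjusted p = 0.0607). Hmgb2, a chromatin protein, was at 32.5 and 34.4 CPM in pop1 HFD and 36.6 and 31.5 in pop1 CD libraries, and 57.9 and 23.5 in pop2 HFD and 41 and 40.8 in pop2 CD libraries. It was at 53.4 and 44.7 CPM in pop4 HFD and 58.7 and 44.6 in pop4 CD libraries, and 56.4 and 43.4 in pop3 HFD and 40.5 and 42.5 in pop3 CD libraries (log2 difference -0.37, SE 0.25, adjusted p = 0.318). Neither passed, and the ranges of both overlapped.

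**Figure D5:**
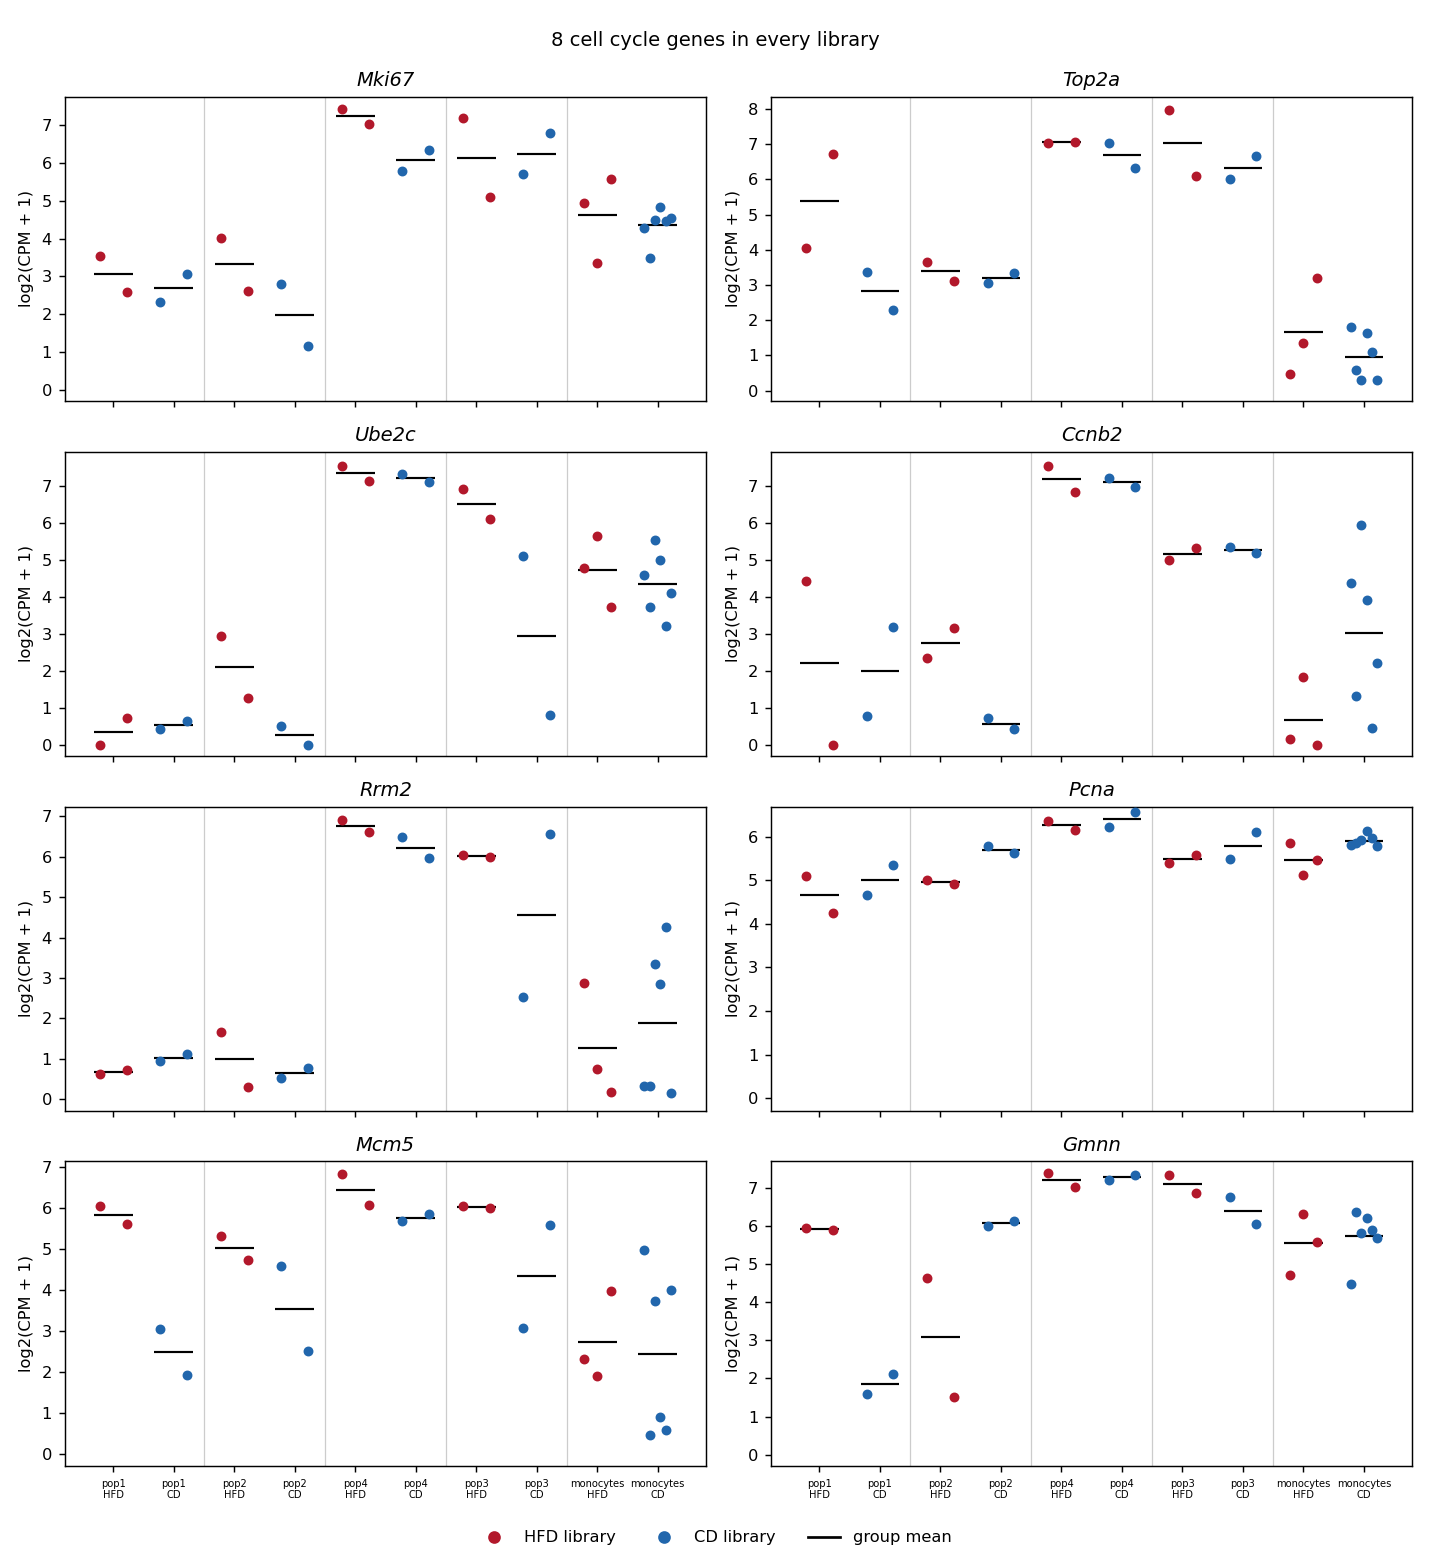
Level (log2 of CPM + 1, vertical axis) of 8 of the genes in every library (points) by population and diet, with the mean of the log2 values as a line. Mki67, Ccnb2 and Rrm2 are higher in every Tim4- library than in any Tim4+ library, Pcna overlaps between the sorts, and Gmnn is higher on HFD than on CD in pop1 and lower in pop2.

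The count of 31 changed with the libraries fitted and with the background measure. With CD groups alone 11 genes fell, with HFD groups alone 16, and with the background measure as a covariate 13. Fits on a single diet hold fewer libraries, so pooling of diets and loss of power cannot be told apart. Over all settings the lower genes of the whole table also varied, from 233 to 1524 (main 1322). Leaving out 1 library at a time gave 24 to 33. Ube2c kept its call under every alternative, with log2 differences from -8.07 to -5.9 without single libraries. The background measure was higher in Tim4+ than in pop4 libraries, and its part in the result was not tested beyond that covariate.

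Other genes of these pathways were read beside the 49. Of 45 further replication genes 0 rose and 14 fell in Tim4+ macrophages, led by Pole2, a subunit of DNA polymerase epsilon (log2 difference -4.3, SE 0.726), Clspn, the checkpoint adaptor claspin (-3.61, SE 0.732), and the repair gene Brca1 (-2.76, SE 0.69). Of 55 further mitosis genes 25 fell, led by the abscission gene Cep55 (-5.43, SE 0.934), Shcbp1 (-5.23, SE 0.993) and the noncoding RNA Lockd (-5.08, SE 1.07). The 1 that rose was Pttg1, which encodes securin, at 186 ± 51 CPM in Tim4+ and 135 ± 16.2 CPM in Tim4- libraries (log2 difference 0.45, SE 0.145, adjusted p = 0.0423). Of 16 genes of G1 cyclins, their kinases and checkpoints, 6 fell, among them Pkmyt1 (-4.28, SE 1.07) and Chek1 (-4.21, SE 0.86), kinases that restrain entry into mitosis, and Ccne1, cyclin E1 (-3.48, SE 1.06). Of 20 E2F, MuvB and FoxM1 regulators 2 fell, E2f2 (-2.57, SE 0.442) and Tfdp2, an E2F partner (-1.47, SE 0.451). This share is near that of all genes tested, of which 7.79% fell. Medians were -1.47, -2.32, -1.19 and -0.33 for these lists in that order. At matched high MHCII, pop2 against pop3, 0 genes of these lists passed in either direction. There 0.136% of all genes were higher and 0.896% lower, and the list medians were -0.82, -1.15, -1.12 and -0.32 in the same order.

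Genes that restrain the cycle moved both ways. Of 19 tested CDK inhibitors and quiescence genes 3 rose and 5 fell in Tim4+ macrophages, beside 7.26% and 7.79% of all genes tested, with a median of -0.37. Maf, a transcription factor that limits macrophage self-renewal in mice, was at 974 ± 136 CPM in Tim4+ libraries, against 517 ± 402 CPM in Tim4- libraries (SD, n = 8 each; log2 difference 1.41, SE 0.189, adjusted p = 2.89e-05). Within Tim4- cells Maf was called lower in pop4 than in pop3. In pop2 against pop3, 0 of the 19 genes passed in either direction. Klf2, a factor of quiescence in T cells, rose by 0.71 on the log2 scale (SE 0.151). Cdkn1a, the CDK inhibitor p21, fell to 15 ± 12.8 CPM in Tim4+ libraries, against 90.6 ± 60.4 CPM in Tim4- libraries (log2 difference -2.12, SE 0.452, adjusted p = 0.00304). Rbl1 (-1.32, SE 0.381), a relative of the retinoblastoma protein, fell too, as did Btg2 (-0.82, SE 0.195), Btg1 (-0.66, SE 0.153) and Ccng1 (-0.81, SE 0.218).

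Markers of other cell types were read as sums. The T cell list (9 genes) was at 5.26 to 43.2 CPM in Tim4+ libraries, 161 to 282 in pop4 and 11.3 to 33.1 in pop3. The NK cell list (8 genes) was at 2.11 to 11.9 CPM in Tim4+ libraries, 58.3 to 102 in pop4 and 2.72 to 24 in pop3. The B cell list (8 genes) was at 3.09 to 51.8 CPM in Tim4+ and 4.83 to 126 CPM in Tim4- libraries. In it 3 genes were lower in Tim4+ cells, beside 7.79% of all genes tested. The red cell list (8 genes) was at 2.76 to 636 CPM in Tim4+ and 1.96 to 308 CPM in Tim4- libraries. In it 5 genes were higher in Tim4+ cells, beside 7.26% of all genes tested. The classical monocyte list (11 genes) was at 1900 to 2770 CPM in Tim4+ and 2780 to 3470 CPM in Tim4- libraries. The macrophage list (9 genes) was at 5130 to 7060 CPM in Tim4+ libraries, 2650 to 3920 in pop4 and 4410 to 5920 in pop3. Of its genes, 3 were called lower in pop4 than in pop3 (4.25% of all genes tested) and 0 higher (2.32%). The dendritic cell list (10 genes) was at 714 to 1640 CPM in Tim4+ libraries, 904 to 1040 in pop4 and 687 to 961 in pop3. In it, Flt3 was called higher in pop4 than in pop3 (means 27.8 and 1.59 CPM). Irf8 (23.4 and 96.1 CPM) and Siglech (0.13 and 34.3 CPM) were called lower. All other genes of the list had higher means in pop4 but were not called. They were Clec9a (10 and 0.736 CPM), Ccr7 (17.3 and 0.828 CPM), Xcr1 (9.25 and 4.79 CPM) and Zbtb46 (7.18 and 3.23 CPM). Batf3 (171 and 123 CPM), Irf4 (162 and 128 CPM) and Cd209a (533 and 429 CPM) complete the list. The median log2 difference of the list was 0.86, beside -0.17 over all genes. The stromal list (11 genes) was at 49.9 to 751 CPM in Tim4+ and 99.1 to 1520 CPM in Tim4- libraries. The endothelial list (8 genes) was at 6.88 to 64.9 CPM in Tim4+ and 36.6 to 76.2 CPM in Tim4- libraries. No list had a gene at 0 in every Tim4+ or every Tim4- library. Among adipose libraries the T and NK cell sums were highest in pop4, where the cell cycle sums were highest, and each was carried there mainly by 1 gene. Cd2 averaged 202 CPM in pop4, against 4.7 in pop1, 10.2 in pop2 and 10.2 in pop3, and Klrd1 averaged 79.6 CPM in pop4, against 0.317 in pop1, 0.341 in pop2 and 7.33 in pop3. Cd3g (13.1 CPM) and Cd3d (5.91 CPM) also had higher means in pop4 than in the other adipose populations. The means of Cd3e (0.193), Lck (0.287), Cd4 (0.313), Themis (0.227), Cd8a (0.129) and Cd8b1 (0.101) were lower in pop4 than in each of pop1, pop2 and pop3. So were those of the NK cell genes Ncr1 (0.0943), Klrb1c (0.289), Eomes (0.19), Prf1 (0.13), Gzmb (0.0662) and Klra8 (0.0617). Gzma went the other way (0.228 in pop4, against 0.0365 in pop1, 0.145 in pop2 and 0.123 in pop3). All these lower pop4 means and that of Gzma lay under the floor of 3 counts in pop4, 0.369 to 0.403 CPM. The NK cell sums of pop3 were 2.72, 14.4, 18.1 and 24 CPM, so 3 of 4 lay above every Tim4+ library. The part of these cells in the result was not tested.

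Within Tim4- cells, pop4 was set against pop3. The mitosis sum was 1970 to 2690 CPM in pop4 and 678 to 1690 CPM in pop3, and the S phase sum 1150 to 1620 CPM in pop4 and 494 to 1100 CPM in pop3, without overlap in either. Of the 49 genes 48 had a positive log2 difference (median 0.86, beside -0.17 over all genes), but 2 rose past the threshold (4.08%, beside 2.32% of all genes) and 0 fell (4.25% of all genes), with 8 at an unadjusted p under 0.05. DESeq2 called 5 higher and 0 lower. Ranges were higher without overlap in 13 genes (26.5%, beside 6.04% of all genes) and lower in 0 (8.48% of all genes). Among the 13 were Ccnb2 at 113 to 187 CPM in pop4 and 30.8 to 40.2 CPM in pop3, and Cdk1 at 100 to 169 CPM in pop4 and 3.02 to 40.1 CPM in pop3.

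The genes past the threshold were Bub1 and Cdc6. Bub1 (chromosome 2, 127800200 to 127831859), the spindle checkpoint kinase, was at 87.9 and 34.1 CPM in pop4 HFD and 20 and 56.3 in pop4 CD libraries, and 4.37 and 0.909 in pop3 HFD and 1.07 and 1.89 in pop3 CD libraries. All pop3 libraries lay below the lowest pop4 library (log2 difference 4.6, SE 1.07, adjusted p = 0.0133). Cdc6 (chromosome 11, 98907889 to 98923942), which loads the MCM helicase, was at 56.2 and 56.9 CPM in pop4 HFD and 45.5 and 22.4 in pop4 CD libraries, and 17.5 and 4.77 in pop3 HFD and 2.31 and 2.64 in pop3 CD libraries (log2 difference 3.06, SE 0.903, adjusted p = 0.0458). Bub1 stayed past the threshold in 20 of 25 fits that left out 1 library and Cdc6 in 7 of 25, with adjusted p up to 0.072 and 0.144. With the background measure as a covariate 0 genes passed, and with CD or HFD groups alone 0. The background measure was at 78.8 to 189 CPM in pop4 and 192 to 656 CPM in pop3.

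At matched high MHCII, Tim4+ pop2 was compared with Tim4- pop3. In pop2, 5 genes were lower (10.2%, beside 0.896% of all genes) and 0 were higher (0.136% of all genes), with 22 at an unadjusted p under 0.05 and a median of -2.01 (0.074 over all genes). DESeq2 called 13 lower and 0 higher. The edgeR calls included Ube2c (log2 difference -5.4, SE 1.05, adjusted p = 0.0123), Tcf19 (log2 difference -6.36, SE 1.44, adjusted p = 0.0338) and Pbk (log2 difference -4.99, SE 1.01, adjusted p = 0.0196). Tcf19 had 0 counts in both pop2 CD libraries, so its fitted value depends on the prior. Mki67 averaged 6.89 ± 5.95 CPM in pop2 and 84.7 ± 52 CPM in pop3 (SD, n = 4 each; log2 difference -3.81, SE 0.678, adjusted p = 0.00542). Top2a averaged 8.93 ± 1.99 CPM in pop2 and 120 ± 87.4 CPM in pop3 (log2 difference -3.67, SE 0.87, adjusted p = 0.0433). The count fell to 0 when only these groups entered the fit, and ran from 1 to 7 without single libraries, with 1 without pop2 HFD3 or pop2 CD8. Ranges were lower without overlap in 12 genes (24.5%, beside 1.66% of all genes) and higher in 0 (1.93% of all genes).

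Pop1 and pop2, the MHCII low and high Tim4+ cells, were compared in the same way. With edgeR 0 genes were higher and 0 lower (0.283% and 0.183% of all genes), with 6 at an unadjusted p under 0.05, while DESeq2 called 0 higher and 2 lower. The median log2 difference was -0.32 (-0.067 over all genes), or -0.4 with the groups at 0 counts set to 3 counts. The mitosis sum was 120 to 369 CPM in pop1 and 184 to 281 CPM in pop2, and the S phase sum 287 to 595 CPM in pop1 and 370 to 473 CPM in pop2. Ranges were higher without overlap in 0 genes (1.29% of all genes) and lower in 1 (2.04%, beside 1.4% of all genes). The smallest p was that of E2f8 (log2 difference -4, SE 1.01, adjusted p = 0.0891).

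Tim4- macrophages were then set against blood monocytes. Of the 49 genes 39 were higher in the macrophages (79.6%, beside 10.2% of all genes) and 0 lower (10% of all genes), with 44 at an unadjusted p under 0.05. DESeq2 called 37 higher and 1 lower. Ranges did not overlap for 15 higher genes (30.6%, beside 2.25% of all genes) and 1 lower gene, Hmgb2 (2.04%, beside 3.21%). Of S phase genes 16 of 19 rose, and of mitosis genes 22 of 28, with median log2 differences of 2.37 in S phase and 4.18 in mitosis genes with the groups at 0 counts set to 3 counts (0.1 over all genes). Cdk1 averaged 79.3 ± 62.7 CPM in Tim4- macrophages (n = 8) and 0.305 ± 0.307 CPM in monocytes (n = 9; log2 difference 7.45, SE 0.981, adjusted p = 1.07e-05). Birc5 averaged 120 ± 63.3 CPM in Tim4- macrophages and 0.242 ± 0.237 CPM in monocytes (log2 difference 8.8, SE 1.13, adjusted p = 7.94e-06). Uhrf1, which recruits the maintenance methyltransferase to replicated DNA, averaged 50.3 ± 27.9 CPM in Tim4- macrophages and 0.659 ± 0.999 CPM in monocytes (log2 difference 6.52, SE 0.915, adjusted p = 2.29e-05). Tk1 averaged 26.4 ± 17.5 CPM in Tim4- macrophages and 0.507 ± 0.641 CPM in monocytes (log2 difference 5.49, SE 1.12, adjusted p = 0.00119).

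Pbk and Cdc45 had 0 counts in all 3 HFD monocyte libraries, so their fitted values depend on the prior. Pbk averaged 68.8 ± 37.6 CPM in Tim4- macrophages and 0.083 ± 0.126 CPM in monocytes, and Cdc45, a part of the replicative helicase, 26.9 ± 17.1 CPM in Tim4- macrophages and 1 ± 1.24 CPM in monocytes. Monocytes did hold some of these RNAs. Mki67 was at 9.29 to 46.4 CPM (median 21.4) in monocytes, Ube2c at 8.23 to 48.9 CPM (median 23.4) and Aurkb, the passenger complex kinase, at 3.44 to 66.5 CPM. The 10 genes not past the threshold were Pcna, Cdt1, E2f8, Ube2c, Aurka, Aurkb, Bub1b, Kif20a, Nusap1 and Hmgb2. Pcna was at 33.5 to 68.9 CPM (median 56.4) in monocytes, overlapping the Tim4- libraries. Ccnb2 was at 0 to 60.4 CPM (median 2.58), Top2a at 0.233 to 8.21 CPM (median 1.14), Rrm2 at 0.117 to 18.2 CPM (median 0.688) and Gmnn at 21.2 to 81.4 CPM (median 55.9).

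For the remaining genes read in every library, monocytes had 0.172 to 31.2 CPM (median 11.9) of Tyms, 0.377 to 30.6 CPM (median 3.97) of Mcm5 and 7.34 to 32.9 CPM (median 20.1) of E2f8. Stmn1 was at 0 to 3.29 CPM (median 0.629) and Hmgb2 at 59 to 114 CPM (median 71.7). Every Tim4- library had less Hmgb2 than every monocyte library, although the test was not passed (log2 difference -0.65, SE 0.25, adjusted p = 0.0704). With CD groups alone 21 of the 49 genes were higher in Tim4- macrophages, and with HFD groups alone 19.

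Tim4+ macrophages differed from monocytes in both directions. In the macrophages 12 genes were higher (24.5%) and 10 lower (20.4%), beside 28% and 19.9% of all genes, so the shares were near those of all genes. Ranges did not overlap for 2 higher genes (4.08%, beside 6.17% of all genes) and 2 lower ones (4.08%, beside 5% of all genes). Both comparisons with monocytes use the same monocyte libraries. The higher genes were Mcm3, Mcm4, Cdc45, Uhrf1, Ndc80, Nuf2, Pbk, Kif2c, Birc5, Ccna2, Top2a and Cdk1, and the lower ones Gmnn, Pcna, Tcf19, E2f8, Spc25, Ube2c, Aurka, Aurkb, Mki67 and Hmgb2. Ube2c averaged 1.27 ± 2.25 CPM in Tim4+ macrophages and 24.9 ± 14.6 CPM in monocytes, without overlap (log2 difference -5.38, SE 0.741, adjusted p = 8.88e-06). Mki67 averaged 6.81 ± 4.34 CPM in Tim4+ macrophages and 22.9 ± 11.2 CPM in monocytes (log2 difference -1.92, SE 0.444, adjusted p = 0.00191). Mcm3 averaged 53.2 ± 21.2 CPM in Tim4+ macrophages and 8.36 ± 5.31 CPM in monocytes, without overlap (log2 difference 2.53, SE 0.443, adjusted p = 0.000142). Cdk1 (4.71, SE 0.855), Birc5 (4.36, SE 0.935) and Uhrf1 (3.23, SE 0.775) had the largest positive log2 differences in their classes, and Tcf19 (-2.91, SE 0.93) and E2f8 (-2.73, SE 0.669) the most negative in S phase. The other lower genes, by log2 difference, were Aurkb (-3.09, SE 0.733), Aurka (-3.07, SE 1.13), Spc25 (-2.41, SE 0.944), Gmnn (-1.47, SE 0.379), Hmgb2 (-1.02, SE 0.252) and Pcna (-0.61, SE 0.248). With the background measure as a covariate 1 gene was higher and 1 lower. That measure was at 243 to 683 CPM in Tim4+ macrophages and 92.8 to 254 CPM in monocytes.

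Markers of other tissue also separated macrophages from monocytes. The adipocyte list (10 genes) was at 281 to 763 CPM in Tim4+, 285 to 731 CPM in Tim4- libraries and 7.77 to 28.8 CPM in monocytes. The neutrophil list (10 genes) was at 6.54 to 91.1 CPM in adipose libraries and 575 to 1270 CPM in monocytes. The red cell list was at 408 to 1420 CPM in monocytes, overlapping the Tim4+ libraries. Their part in the cell cycle values was not tested.

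The effect of the diet was tested within each population. In pop3, 42 of the 49 genes had a positive log2 difference of HFD over CD (median 1.03, beside -0.14 over all genes). The ranges were higher without overlap in 20 genes (40.8%, beside 16.3% of all genes) and lower in 2 (4.08%, beside 24.3%). With edgeR 0 passed in either direction (0.0825% of all genes higher and 0.0118% lower), with 2 at an unadjusted p under 0.05, and DESeq2 called 1 higher and 0 lower. The genes at an unadjusted p under 0.05, E2f8 and Tcf19, are named after their values were seen. E2f8 was at 36 and 19.2 CPM on HFD and 0.711 and 1.7 CPM on CD (log2 difference 4.5, SE 1.45, adjusted p = 0.238), and Tcf19 at 32.8 and 57.9 CPM on HFD and 3.2 and 5.09 CPM on CD (log2 difference 3.45, SE 1.57, adjusted p = 0.428). The mitosis sum was 1690 and 1300 CPM on HFD and 678 and 856 CPM on CD, and the S phase sum 1100 and 925 CPM on HFD and 494 and 804 CPM on CD. The pop3 HFD libraries held 7751282 and 8524867 counts and 326 and 192 CPM of the background measure, against 5568403 and 5071290 counts and 419 and 656 CPM in CD libraries. The part of depth and background was not tested.

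In pop4, 32 of the 49 genes were positive (median 0.23, beside -0.09 over all genes), and 13 had higher ranges without overlap (26.5%, beside 14.7% of all genes), while 1 had a lower one (2.04%, beside 21.2%). With edgeR 0 were higher (0% of all genes) and 0 lower (0.0354%), with 0 at an unadjusted p under 0.05 and 0 called by DESeq2. Across both Tim4- populations 45 of 49 were positive (median 0.64, beside -0.11 over all genes), with 0 past the threshold in either direction (0.0354% of all genes higher and 0.059% lower) and 2 at an unadjusted p under 0.05. There DESeq2 called 1 higher and 0 lower.

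In Tim4+ cells 1 gene passed, Gmnn in pop1, where 1 of 49 genes was higher (2.04%, beside 0.0531% of all genes) and 0 lower (0.383% of all genes). Gmnn was at 60.5 and 58.9 CPM in pop1 HFD libraries and at 2 and 3.36 CPM in pop1 CD libraries (log2 difference 4.46, SE 0.865, adjusted p = 0.0196). In pop2 the order was the opposite, with 24 and 1.87 CPM on HFD and 63.1 and 69.4 CPM on CD, and the test was not passed (log2 difference -2.35, SE 0.779, adjusted p = 0.0994). The difference of the diet effects between pop1 and pop2, a test chosen after these values were seen, was 6.81 on the log2 scale (SE 1.16, adjusted p = 0.00929). The pop1 call was lost without pop1 HFD3 or either pop1 CD library (adjusted p up to 0.193), with the background covariate, and when only the pop1 groups entered the fit (adjusted p = 0.453). Ranges were higher without overlap in 9 of the 49 genes (18.4%, beside 15.4% of all genes) and lower in 11 (22.4%, beside 26.5%). Background stood at 243 and 265 CPM in pop1 HFD and 639 and 605 CPM in pop1 CD libraries.

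In pop2 edgeR called 0 of 49 genes higher (0.755% of all genes) and 0 lower (3.44%), with 6 at an unadjusted p under 0.05, while DESeq2 called 4 higher and 1 lower. Over all settings the whole table had 0 to 880 genes higher and 0 to 1035 lower. Ranges were higher without overlap in 15 genes (30.6%, beside 28.9% of all genes) and lower in 7 (14.3%, beside 18.4%), near the shares of all genes. Across both Tim4+ populations 0 were higher (1.14% of all genes) and 0 lower (4.12%), with 11 at an unadjusted p under 0.05 and 1 called higher by DESeq2. In monocytes 0 were higher (0.0059% of all genes) and 0 lower (0%), with 8 at an unadjusted p under 0.05 and 3 called lower by DESeq2. Ranges were higher without overlap in 0 genes (1.26% of all genes) and lower in 2 (4.08%, beside 1.33%). The S phase sum of monocytes was 225 to 314 CPM on HFD and 280 to 364 CPM on CD, and the mitosis sum 136 to 211 CPM on HFD and 137 to 314 CPM on CD. The diet effect in Tim4- cells minus that in Tim4+ cells passed for 0 of the 49 genes in either direction (0.572% of all genes higher and 0.0649% lower), with 1 at an unadjusted p under 0.05 and 0 called by DESeq2.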

How the data were processed

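The deposited values are whole-number read counts per gene model, 1 column per library, which the authors made with STAR 2.5.3a, HOMER and the genome build mm10, per the submitters' processing notes. Strand setting, annotation version, treatment of duplicates and of reads with several matches are not given in the sources used here, so overlapping genes may share reads. Reads carry no molecular identifiers. The 25 libraries were grouped by the labels' population and diet into 10 groups. Genes were filtered with filterByExpr, libraries scaled by TMM, and 1 edgeR quasi-likelihood fit (edgeR 4.0.16, limma 3.58.1, R 4.3.3) of the 10 group means, with 15 residual degrees of freedom, gave every contrast. Adjusted p-values are Benjamini-Hochberg over all 16961 genes, with a threshold of 0.05, and the SE is the absolute log2 difference over the square root of F. The step was tested on simulated data. Replicate libraries differed by 44.3 to 103 times the counting variance, so none was a copy of the counts of another. This does not show whether they came from separate animals.

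The 49 genes and all lists were chosen with earlier results of these data known. Genes named are 15 read in every library and, per comparison and class, the 3 genes past the threshold with the largest log2 difference and all against the majority direction, and in the Tim4 comparison the 3 largest of each pathway list per direction. Alternatives were DESeq2 1.42.0 and its size factors, upper-quartile factors, no filter on low counts, the background measure as covariate, a replicate block, each diet alone, only the groups compared, other sums and leaving out libraries. Leaving out libraries for the ratios of sums was added after seeing the data. Promoters and figures used Python 3.11.15, pandas 2.3.3 and matplotlib 3.10.9. The 8 genes with no promoter entry were Aurkb, Ccna2, Gmnn, Kif20a, Mcm4, Pbk, Stmn1 and Tpx2. The values of 1 gene chosen by the rule for named pathway genes are not reported here.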

Additional observations from a re-analysis of the deposited data

Results flagged for a closer look

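Of 52 values tested in the 6 monocyte CD libraries (the 49 genes, both sums and their ratio), 15 had a highest library far from the rest, and chance flags a few of so many. CD3 held 7 of them, with Tk1 at 1.98 CPM, Cdt1 at 35.4, Ccnb2 at 60.4, Cdca3 at 24.6, Cenpe at 11.4, Cenpf at 7.8 and Hmgb2 at 114 CPM. CD1 held Tpx2 at 32.8, Spc25 at 8.72 and Nuf2 at 0.498 CPM. CD-CD6 held Uhrf1 at 3.26 and Kif11 at 9.52 CPM, CD-CD7 held Pbk at 0.38 and Cdca8 at 16.1 CPM, and CD-CD8 held Prc1 at 3.64 CPM. Pbk and Nuf2 stood near the floor of 3 counts.

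The diets had opposite order in different adipose populations, with no overlap between libraries, for 11 of the 49 genes (Rrm2, Mcm6, Gmnn, Cdt1, Cdc6, E2f8, Cdca3, Cenpe, Cenpf, Nusap1 and Nuf2). The matching share of all genes was not computed. With 2 libraries per diet, ranges without overlap were common among all genes within single populations. They made up 14.7% to 28.9% in the higher direction and 18.4% to 26.5% in the lower. The count of 11 is therefore not read as a result about these genes. Of the 11, the values of the 3 that were read in every library follow. The HFD minus CD difference of mean Rrm2 was 32.6 CPM in pop4 (108 on HFD, 75 on CD) and -0.441 CPM in pop1 (0.6 on HFD, 1.04 on CD), where the HFD libraries at 0.55 and 0.649 CPM stood near their floors of 0.413 and 0.487 CPM. For E2f8 it was 47.7 CPM in pop4 (63.7 on HFD, 16 on CD), 26.4 CPM in pop3 (27.6 on HFD, 1.21 on CD) and -0.44 CPM in pop1 (0.543 on HFD, 0.983 on CD), where 1 HFD library, at 0.275 CPM, lay under its floor. For Gmnn it was 57 CPM in pop1 (59.7 on HFD, 2.68 on CD), 52.3 CPM in pop3 (138 on HFD, 86.2 on CD) and -53.3 CPM in pop2 (12.9 on HFD, 66.2 on CD). The difference between pop1 and pop2 was tested for Gmnn (6.81 on the log2 scale, SE 1.16, edgeR adjusted p = 0.00929), a test chosen after the values were seen, and the other differences were not tested. The call for Gmnn in pop1 itself was lost in several alternatives, with an adjusted p of up to 0.453.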

How the results depend on the processing

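Counts of the 49 genes past the threshold moved with the setting as follows, and the cause was not tested. Fits on a single diet, on only the groups compared or with libraries left out also hold fewer libraries. Lower in Tim4+ against Tim4- were 13 with the background covariate, 11 with CD groups alone and 16 with HFD groups alone (main 31). Higher in pop4 against pop3 (main 2) were 1 with DESeq2 size factors, upper-quartile factors, no filter or the replicate block, 0 with the covariate or either diet alone, and 5 with DESeq2. Lower in pop1 against pop2 (main 0) were 2 with DESeq2, 1 with CD alone and 2 without both pop2 HFD libraries. Lower in pop2 against pop3 (main 5) were 3 with the covariate, 13 with DESeq2, 0 with only the groups compared or either diet alone, and 1 with the replicate block or without both pop2 HFD libraries. For Tim4- against monocytes, 21 with CD alone and 19 with HFD alone were higher (main 39), and 1 was lower with DESeq2 or only the groups compared (main 0). For Tim4+ against monocytes, 1 with the covariate and 7 with CD alone were higher (main 12), and 1 with the covariate, 6 with the replicate block and 1 with HFD alone were lower (main 10). There Cdc45 turned to -1.34 with CD alone and Tcf19 to 1.34 with HFD alone. For diet in monocytes, 0 passed with either the CD or the CD-CD titles alone as controls. Elsewhere for diet, pop1 had 0 higher with the covariate or only the groups compared and 2 with DESeq2 (main 1). DESeq2 gave 4 higher and 1 lower in pop2, 1 higher in pop3, 3 lower in monocytes, and 1 higher across Tim4- and across Tim4+ cells (main 0 in each).

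With mean log2(CPM + 1) in place of sums, the S phase log2 ratio was -1.99 for Tim4+ against Tim4- (main -1.24) and 2.37 for Tim4- against monocytes (main 1.74). Without the most abundant gene, the mitosis ratio of Tim4+ against monocytes was -0.2 (main 0.15).

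Leaving out 1 library at a time gave 24 to 33 lower for Tim4+ against Tim4-, 0 to 2 higher for pop4 against pop3 (0 without pop4 HFD2, pop4 CD8, pop3 HFD3 or pop3 CD8), 0 to 1 lower for pop1 against pop2, and 1 to 7 lower for pop2 against pop3. It gave 30 to 39 higher and 0 to 1 lower for Tim4- against monocytes, and 10 to 13 higher and 7 to 11 lower for Tim4+ against monocytes. For diet it gave 0 to 1 higher in pop1, 0 to 1 lower in pop2 and 0 to 1 higher across Tim4+ cells. The mitosis log2 ratio ran from -2.96 to -2.67 for Tim4+ against Tim4-, 0.81 to 1.25 for pop4 against pop3, 2.83 to 3.11 for Tim4- and 0.045 to 0.28 for Tim4+ against monocytes. The S phase ratio ran from -1.39 to -1.14, 0.47 to 0.86, 1.64 to 1.89 and 0.43 to 0.58 in the same order. Deviations of libraries with the same title number correlated at -0.0393 to 0.0734. Such values do not settle whether equal numbers mark the same animals, because spread between replicate libraries was large. The main fit did not pair libraries, and the replicate block is given here only.

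Over all settings, the genes of the whole table past the threshold numbered 150 to 2568 higher and 233 to 1524 lower for Tim4+ against Tim4- (main 1232 and 1322), 9 to 742 higher and 72 to 1782 lower for pop4 against pop3 (main 394 and 720), 0 to 381 higher and 0 to 613 lower for pop2 against pop3 (main 23 and 152). They numbered 4 to 307 higher and 2 to 260 lower for pop1 against pop2 (main 48 and 31), 536 to 2614 higher and 459 to 2240 lower for Tim4- against monocytes (main 1736 and 1697), 464 to 6157 higher and 609 to 3777 lower for Tim4+ against monocytes (main 4748 and 3370). For diet they numbered 0 to 251 higher and 0 to 485 lower for pop1 (main 9 and 65), 0 to 880 higher and 0 to 1035 lower for pop2 (main 128 and 583), 0 to 374 higher and 0 to 343 lower for pop3 (main 14 and 2), 0 to 34 higher and 0 to 96 lower for pop4 (main 0 and 6), 0 to 34 higher and 0 to 106 lower for monocytes (main 1 and 0). DESeq2 size factors moved the median log2 difference over all genes to 0.26 for Tim4+ against Tim4- (main 0.14), -0.3 for pop4 against pop3 (main -0.17) and 0.47 for Tim4+ against monocytes (main 0.25).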
